A study of Caenorhabditis elegans with 18 samples.

Results

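The genes described here are irg-1, irg-4, irg-5 and irg-6, 4 infection response genes of Caenorhabditis elegans that were chosen by name and matched to their WormBase identifiers, out of 47020 annotated genes in each deposited expression table. Wild-type N2 worms were fed bacteria making double-stranded RNA against numr-1/2, against ints-4, or carrying the empty vector, here called numr-1/2(RNAi), ints-4(RNAi) and, for the vector, control(RNAi). Each was sampled without cadmium and after 12 h with 300 μM cadmium, which gives 6 groups of 3 biological replicates and 18 libraries of oligo(dT)-selected RNA from whole animals. numr-1 and numr-2 are duplicate cadmium-induced genes of a nuclear SR-like protein, and ints-4 encodes a subunit of the integrator complex, which processes the 3′ ends of small nuclear RNAs. The study asked how numr-1 is regulated and whether cadmium and loss of integrator disrupt RNA processing. Only RNA levels are described here. RNAi by feeding lowers a message in many tissues at once and leaves some of it, so no group is a null mutant, and in RNA from whole animals fewer cells of a type and less RNA per cell cannot be told apart.

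Worms have no adaptive immune cells, and their intestine answers ingested bacteria by switching on sets of defence genes. One branch runs through the p38 MAP kinase PMK-1 and the transcription factor ATF-7. Another runs through the bZIP transcription factor ZIP-2, which is activated when a pathogen such as Pseudomonas aeruginosa blocks translation in the host. irg-1 is the standard reporter of the ZIP-2 branch, and its induction by P. aeruginosa does not need PMK-1. irg-4, irg-5 and irg-6 encode proteins with a CUB-like domain that are induced in the intestine by P. aeruginosa, and the levels of irg-4 and irg-5 depend on PMK-1.

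In WBcel235, irg-1 (WBGene00015574) lies on the plus strand of chromosome V from 3523587 to 3524679 and has 4 exons with 750 bases. irg-5 (WBGene00009429) lies on the same chromosome from 13737010 to 13738474 on the minus strand, with 7 exons and 1117 bases. irg-4 (WBGene00008584) lies on the plus strand of chromosome IV from 12435833 to 12438236, with 7 exons and 1102 bases. irg-6 (WBGene00007864) lies on the minus strand of chromosome IV from 12912722 to 12914969, has 2 annotated transcripts, of which the longer has 9 exons, and covers 1679 exon bases. None of the 4 overlaps another annotated gene.

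The deposited values are group means, but their 15 digits hold the whole reads of each of the 3 libraries, and these reads were recovered for every value up to 10000 in 5 groups and for 99.6% of them in numr-1/2(RNAi) with cadmium. The libraries are called a, b and c in each group, since their replicate numbers are not known from the values. They held 11829781 to 15702150 recovered reads each over 16396 to 21179 genes. Library c of control(RNAi) with cadmium stood apart, with the fewest genes with reads (16396), so results that change without it are given both ways. The targeted gene ints-4 had 1521 ± 184 normalised reads in control(RNAi) and 649 ± 53.5 in ints-4(RNAi), and 1218 ± 139 and 602 ± 102 with cadmium (mean ± SD, n = 3). The duplicate copies numr-1 and numr-2, whose reads cannot be assigned with certainty, had 24, 12 and 44 reads together in the control(RNAi) libraries and 29, 19 and 46 in numr-1/2(RNAi), so that without cadmium the knockdown was not detectable at this depth. With cadmium they had 556, 345 and 241 reads in control(RNAi) and 108, 98 and 136 in numr-1/2(RNAi).

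irg-1, the ZIP-2 reporter, had 54, 58 and 29 reads in the control(RNAi) libraries and 345, 335 and 424 with cadmium. In numr-1/2(RNAi) it had 77, 84 and 69 reads without cadmium and 275, 358 and 317 with it. The ints-4(RNAi) libraries held 125, 132 and 143 reads, and 306, 319 and 248 with cadmium. Every library with cadmium was thus above every library without it, whichever RNAi the worms received. After scaling for depth the means were 48.1 ± 14.6 in control(RNAi), 76.3 ± 9.80 with numr-1/2 knocked down, and 131 ± 10.4 in ints-4(RNAi) (SD, n = 3). With cadmium they were 365 ± 56.1, 278 ± 47.0 and 302 ± 43.1 in the same order. In the order of the 6 groups, the libraries of ints-4(RNAi) with cadmium overlapped those of both neighbours, numr-1/2(RNAi) with cadmium and control(RNAi) with cadmium.

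irg-4, a CUB-like gene of the PMK-1 branch, was the most abundant of the 4 per exon length in each group but numr-1/2(RNAi) without cadmium. Its normalised reads were 239, 124 and 199 in the control(RNAi) libraries and 1041, 1019 and 706 with cadmium. The numr-1/2(RNAi) libraries held 356, 427 and 427 normalised reads, and 1644, 1869 and 1993 with cadmium. In ints-4(RNAi) they were 2193, 2211 and 1522 without cadmium and 2991, 3773 and 3146 with it. ints-4(RNAi) without cadmium was therefore above control(RNAi) with cadmium in every library. The normalised means were 187 ± 58.8 in control(RNAi), 403 ± 41.0 with numr-1/2(RNAi) and 1975 ± 393 under ints-4(RNAi), and in the same order 922 ± 187, 1835 ± 177 and 3303 ± 414 with cadmium. Among neighbours in the order of its levels, numr-1/2(RNAi) with cadmium and ints-4(RNAi) without it overlapped.

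irg-5, also a CUB-like gene of the PMK-1 branch, had a different order, with the highest levels in numr-1/2(RNAi). The control(RNAi) libraries held 77, 45 and 64 reads, and 170, 142 and 159 with cadmium. In numr-1/2(RNAi) there were 429, 467 and 419 reads, and 689, 588 and 662 with cadmium. The ints-4(RNAi) libraries lay between, with 202, 202 and 207 reads, and 384, 400 and 401 with cadmium. Normalised means were 63.8 ± 14.9 in control(RNAi), 436 ± 41.4 with numr-1/2(RNAi) and 201 ± 9.91 under ints-4(RNAi), and in the same order 156 ± 15.7, 566 ± 40.7 and 410 ± 15.2 with cadmium. The libraries of numr-1/2(RNAi) without cadmium and ints-4(RNAi) with cadmium overlapped, and all 3 libraries of numr-1/2(RNAi) without cadmium were above those of control(RNAi) with cadmium.

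irg-6, the third CUB-like gene, was near the limit of detection without cadmium, with 11, 4 and 14 reads in control(RNAi), 12, 18 and 33 under numr-1/2(RNAi) and 12, 3 and 5 where ints-4 was silenced. These 3 groups overlapped. With cadmium the counts were 190, 245 and 138 in control(RNAi), 347, 442 and 406 under numr-1/2(RNAi), and 49, 43 and 47 where ints-4 was silenced. The 3 groups with cadmium did not overlap one another or any group without it. Normalised means went from 10.1 ± 5.65 to 189 ± 49.2 in control(RNAi), from 20.9 ± 10.6 to 350 ± 56.6 under numr-1/2(RNAi), and from 6.67 ± 4.91 to 48.1 ± 2.35 where ints-4 was silenced.

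**Figure D1:**
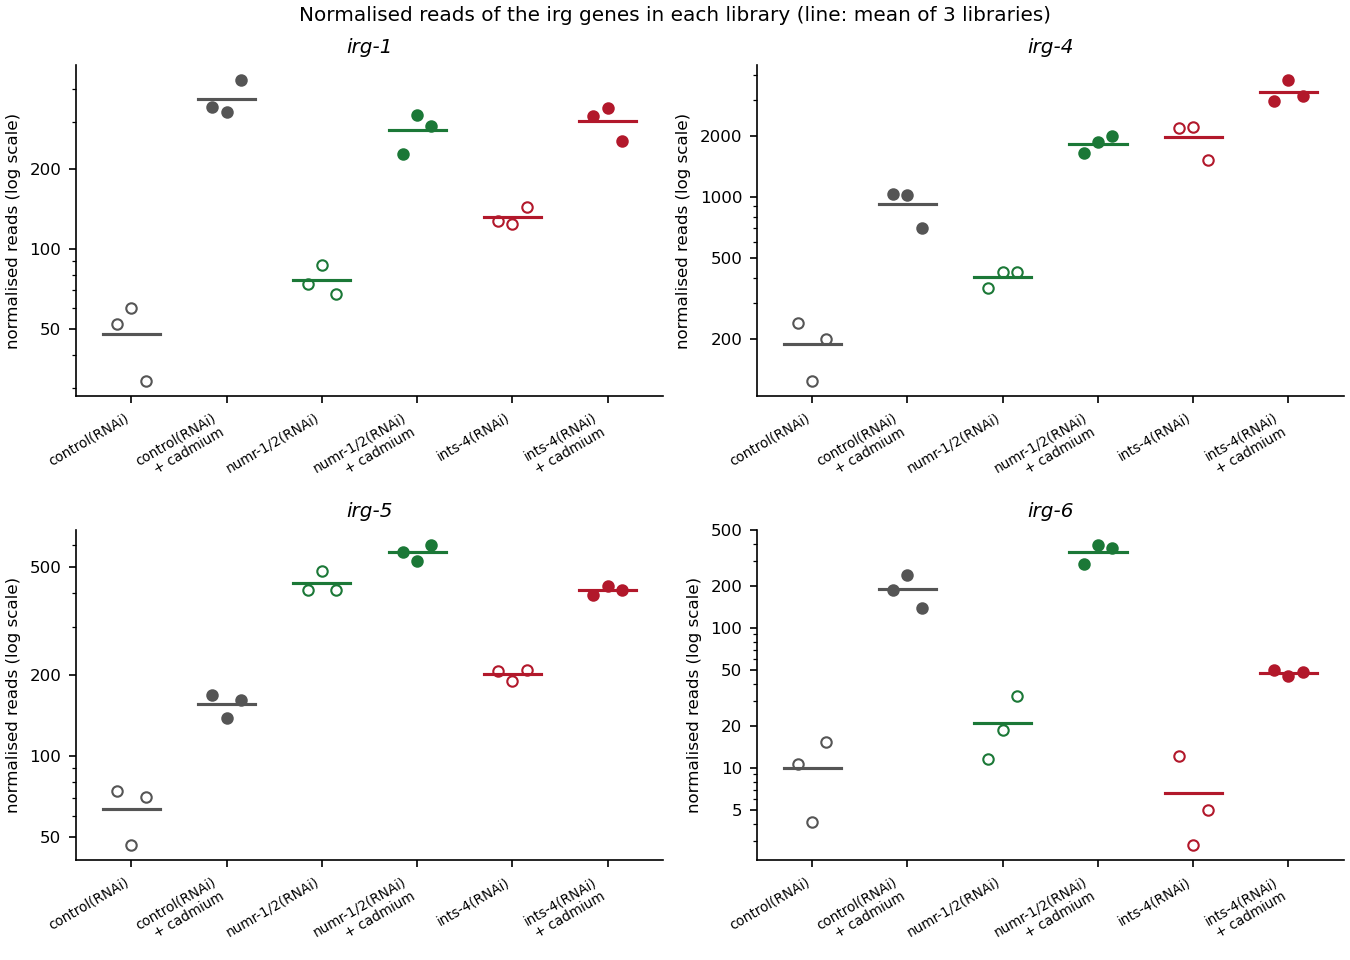
Normalised reads of irg-1, irg-4, irg-5 and irg-6 on a log axis, 1 panel a gene, with 1 point for each of the 3 libraries of each of the 6 groups, a line at the group mean, and filled points for cadmium. The highest group differs by gene: control(RNAi) with cadmium for irg-1 (mean 365), ints-4(RNAi) with cadmium for irg-4 (3303), and numr-1/2(RNAi) with cadmium for irg-5 (566) and irg-6 (350).

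Per kilobase of exon, which allows levels of different genes to be compared, control(RNAi) held 170 ± 53.4 normalised reads of irg-4, 64.1 ± 19.4 of irg-1, 57.1 ± 13.4 of irg-5 and 5.99 ± 3.36 of irg-6 (SD, n = 3). The levels of irg-1 and irg-5 differed by less than their spread. With cadmium the levels per kilobase were 837 ± 170, 487 ± 74.8, 139 ± 14.0 and 112 ± 29.3 in the same order, so that irg-6 came close to irg-5. In numr-1/2(RNAi) without cadmium irg-5, at 390 ± 37.1 per kilobase, stood beside irg-4 at 366 ± 37.2.

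Cadmium raised all 4 genes in control(RNAi). irg-6 rose most, with a log2 fold change of 4.22 ± 0.48 (SE, limma adjusted p = 0.000265), which ranked 46 of 17656 genes tested, and irg-1 rose by 2.94 ± 0.28 (limma adjusted p = 8.84e-05). irg-4 rose by 2.32 ± 0.25 on the log2 scale (limma adjusted p = 0.000196) and irg-5 by 1.30 ± 0.27 (limma adjusted p = 0.0083). In the ratios of the deposited group means, 4 of 4 were at least 2-fold higher, as were 10.9% of the 18479 genes detected in each of the 6 groups. With limma, 4 of 4 were at least 2-fold higher at an adjusted p below 0.05, against 4.77% of genes tested. For each of the 4 the libraries of the 2 groups did not overlap, which held for 35.2% of genes in either direction. The deposited means put the changes at 19.04-fold for irg-6, 7.68-fold for irg-1, 4.99-fold for irg-4 and 2.47-fold for irg-5.

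With numr-1/2 knocked down, cadmium again raised all 4 genes, irg-6 most and irg-5 least. The log2 fold changes were 4.11 ± 0.32 for irg-6, 2.18 ± 0.11 for irg-4 and 1.85 ± 0.18 for irg-1, with limma adjusted p values of 2.42e-06, 9.94e-08 and 1.41e-05. irg-5 rose by 0.38 ± 0.11 on the log2 scale (limma adjusted p = 0.0229), and this call was lost without library a or c of either group (limma adjusted p = 0.0592 to 0.0840) and in the fit over all 6 groups (0.0763). In the deposited means 3 of 4 were at least 2-fold higher, against 12.4% of genes, and with limma the count was also 3, against 7.26%. Libraries of the groups did not overlap for any of the 4, as for 45.1% of genes.

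Under ints-4(RNAi) all 4 genes rose with cadmium, irg-6 most and irg-4 least. The log2 fold changes were 2.87 ± 0.47 for irg-6, 1.19 ± 0.16 for irg-1, 1.03 ± 0.12 for irg-5 and 0.76 ± 0.15 for irg-4. Their limma adjusted p values were 0.00311, 0.00077, 0.000332 and 0.00959. In the deposited means 3 of 4 were at least 2-fold higher, with irg-4 at 1.68-fold, against 5.53% of genes, and limma called the same number at 2-fold, against 2.57%. The groups did not overlap for any of the 4 genes, nor for 34.4% of genes.

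**Figure D2:**
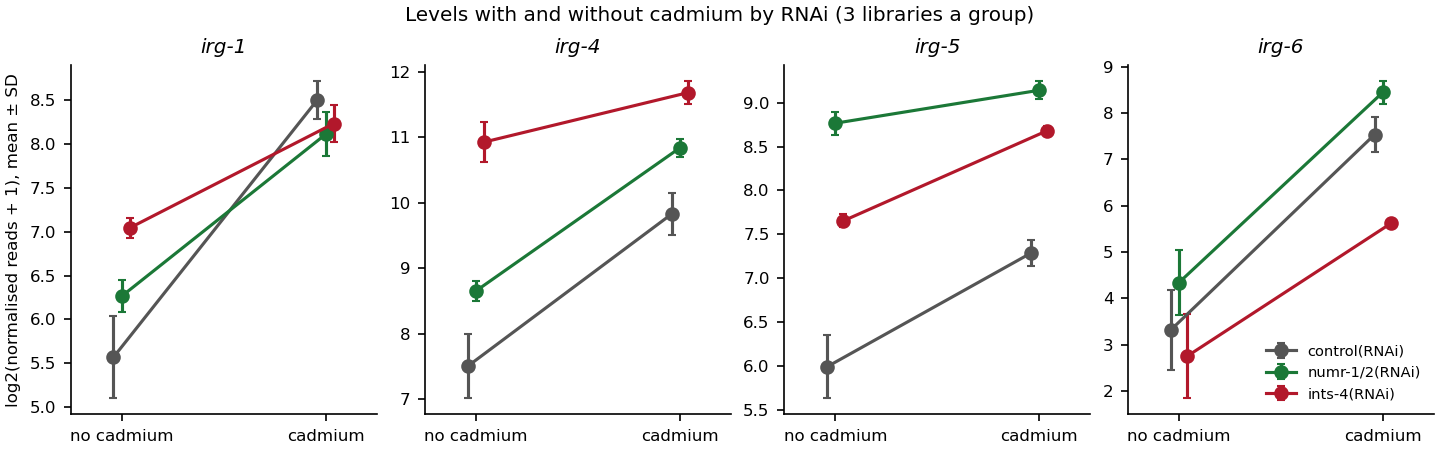
Mean ± SD of log2(normalised reads + 1) over 3 libraries without and with cadmium, 1 panel a gene and 1 line for each RNAi. For irg-1 the lines start apart and end close together, for irg-4 the ints-4(RNAi) line is the flattest (log2 change 0.76), and for irg-5 the numr-1/2(RNAi) line is (0.38).

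The difference between the cadmium responses was tested as an interaction over all 6 groups. irg-1 responded less in ints-4(RNAi) than in control(RNAi), by a log2 difference of -1.75 ± 0.30 (limma adjusted p = 0.000723). irg-4 also responded less there, by -1.57 ± 0.29 (limma adjusted p = 0.00138), and 10.8% of genes tested had a difference at an adjusted p below 0.05. For irg-5 the difference was -0.27 ± 0.22 (limma adjusted p = 0.534) and for irg-6 it was -1.35 ± 0.66 (limma adjusted p = 0.233), and neither passed the test. Between control worms and numr-1/2(RNAi), where 5.68% of genes differed, irg-5 responded less by -0.92 ± 0.22 (limma adjusted p = 0.0154). irg-1 responded less by -1.09 ± 0.30 (limma adjusted p = 0.0395), which became 0.0821 without library c of control(RNAi) with cadmium. irg-4 and irg-6 had differences of -0.14 ± 0.29 and -0.11 ± 0.66 (limma adjusted p = 0.878 and 0.964), and the error of irg-6 leaves room for changes of either sign. The response of irg-4 differed between ints-4(RNAi) and the numr-1/2 knockdown, by -1.43 ± 0.29 (limma adjusted p = 0.0017), and so did that of irg-5, by 0.65 ± 0.22 (limma adjusted p = 0.046), where 17.7% of genes differed.

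Without cadmium, numr-1/2(RNAi) raised irg-5 and irg-4. irg-5 rose by 2.78 ± 0.21 on the log2 scale (limma adjusted p = 1.28e-05), which ranked 48 of 17656 genes, and irg-4 by 1.15 ± 0.23 (limma adjusted p = 0.00424). irg-1 had a log2 fold change of 0.70 ± 0.30 with no overlap between the groups (limma adjusted p = 0.101), which passed the threshold in the fit over all 6 groups (limma adjusted p = 0.0159). irg-6 had a log2 fold change of 1.02 ± 0.56 with overlapping libraries (limma adjusted p = 0.197), on 4 to 33 reads a library. In the deposited means 3 of 4 were at least 2-fold higher, irg-6 among them at 2.102-fold, against 9.69% of genes, and limma called 2, against 6.06%. Libraries did not overlap for 3 of the 4 genes, as for 46.4% of genes. The limma count fell to 1 without library b of control(RNAi), where irg-4 was lowest.

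ints-4(RNAi) without cadmium raised irg-4, irg-5 and irg-1, and irg-6 did not pass the test. irg-4 rose by 3.42 ± 0.24 on the log2 scale (limma adjusted p = 4.93e-06), irg-5 by 1.66 ± 0.22 (limma adjusted p = 0.000309) and irg-1 by 1.48 ± 0.27 (limma adjusted p = 0.00227). irg-6 had a log2 fold change of -0.57 ± 0.65 (limma adjusted p = 0.555), on 3 to 14 reads a library. In the deposited means, 3 of 4 were at least 2-fold higher, against 12.5% of genes, and limma called 3, against 7.78%. The folds in the deposited means were 10.7 for irg-4, 3.18 for irg-5 and 2.77 for irg-1. Groups did not overlap for these 3, as for 45.1% of genes.

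With cadmium in both groups, numr-1/2(RNAi) was above control(RNAi) for irg-5, irg-4 and irg-6. irg-5 was higher by 1.86 ± 0.14 on the log2 scale (limma adjusted p = 4.38e-05) and irg-4 by 1.009 ± 0.16 (limma adjusted p = 0.00127). irg-6 was higher by 0.91 ± 0.21 (limma adjusted p = 0.0096), a call that was lost without library b of numr-1/2(RNAi) with cadmium (limma adjusted p = 0.0541) and in the fit over all 6 groups (0.137). irg-1 had a log2 fold change of -0.39 ± 0.17 (limma adjusted p = 0.110). By the deposited means 2 of 4 were at least 2-fold higher, against 10.2% of genes, and by limma 2, against 5.73%. The limma count was 1 without library b or c of numr-1/2(RNAi) with cadmium or library c of control(RNAi) with cadmium, where irg-4 came to less than 2-fold, and 3 without library a of numr-1/2(RNAi) with cadmium or library b of control(RNAi) with cadmium, where irg-6 passed it. The 2 groups did not overlap for any of the 4, as for 47.1% of genes.

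With cadmium, ints-4(RNAi) was above control(RNAi) for irg-4 and irg-5 and below it for irg-6. irg-4 was higher by 1.85 ± 0.17 on the log2 scale (limma adjusted p = 5.06e-05) and irg-5 by 1.40 ± 0.15 (limma adjusted p = 0.000198). irg-6 was lower, with a log2 fold change of -1.92 ± 0.26 (limma adjusted p = 0.000743), from 189 to 48.1 normalised reads. irg-1 had a log2 fold change of -0.27 ± 0.17 with overlapping libraries (limma adjusted p = 0.291). In the deposited means 2 of 4 were at least 2-fold higher, against 10.6% of genes, and 1 was at least 2-fold lower, against 9.25%. limma gave the same counts, against 4.68% and 5.3%. For 3 of the 4 genes the groups did not overlap, as for 41.2% of genes. The comparisons with control(RNAi) share its libraries, and those with control(RNAi) with cadmium share those.

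**Figure D3:**
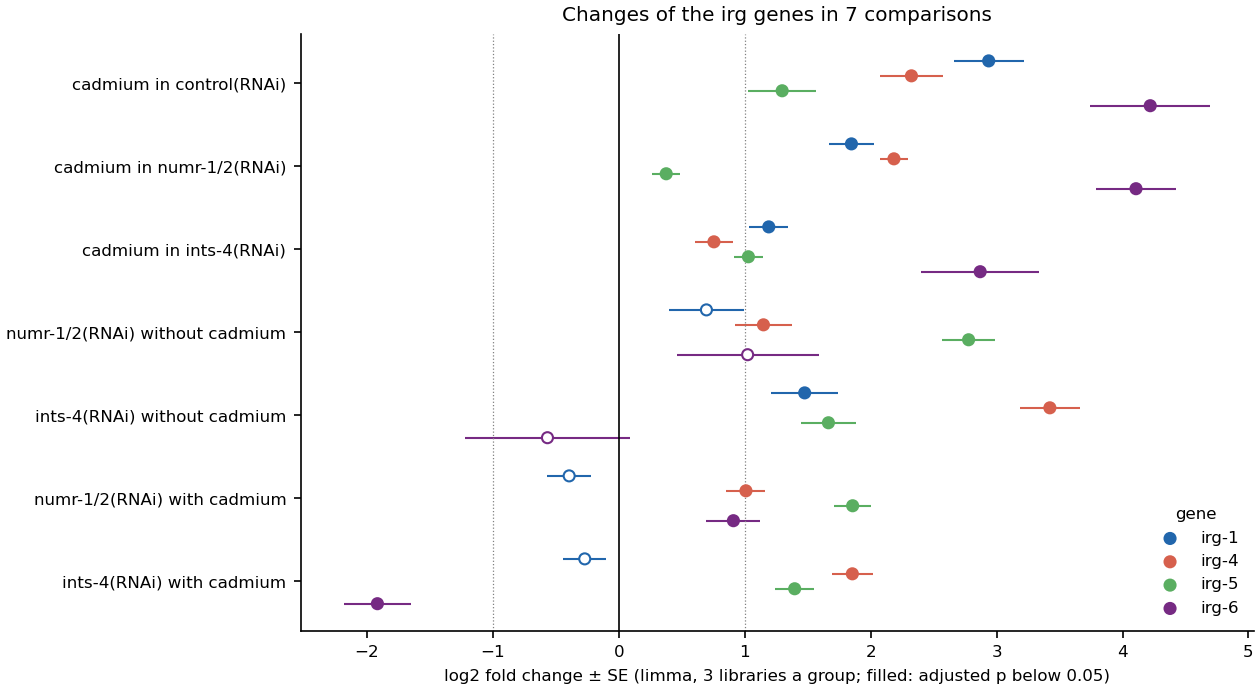
log2 fold change ± SE of each gene in the 7 comparisons from limma, with 3 libraries a group, dotted lines at 2-fold, and filled points for an adjusted p below 0.05. The change with cadmium was above 0 for all 4 genes in every RNAi. It was smallest for irg-5 in numr-1/2(RNAi), at 0.38, a call lost in some fits with 1 library left out. The effect of ints-4(RNAi) ran from 3.42 for irg-4 without cadmium to -1.92 for irg-6 with cadmium.

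In the gene lists and neighbours that follow, a gene is counted as higher or lower where it changed at least 2-fold at a limma adjusted p below 0.05. Of 7 other genes listed for the ZIP-2 pathway, all tested, 4 rose with cadmium in control(RNAi) and none fell. Of all genes tested, 4.77% were higher and 2.71% lower. The median log2 fold change was 1.30, against -0.03 over all genes tested. The list was chosen with earlier results of these data known. It also holds zip-10 and atfs-1, whose dependence on ZIP-2 was not tested. The bZIP gene zip-10 rose by 2.46 ± 0.25 (limma adjusted p = 0.000135), the ZIP-2 target irg-3 by 2.25 ± 0.14 (6.32e-06) and cebp-1, a C/EBP factor, by 1.66 ± 0.11 (9.12e-06). In numr-1/2(RNAi) cadmium also raised 4 of 7, against 7.26% of genes, with a median of 1.003 against 0.01. The largest rise was that of irg-3, by 2.81 ± 0.18 on the log2 scale (limma adjusted p = 6.18e-07). In ints-4(RNAi) only irg-3 of the 7 was counted as higher with cadmium, by 1.15 ± 0.12 (limma adjusted p = 0.00014), against 2.57% of genes. The median was 0.20 against -0.01. ints-4(RNAi) without cadmium raised 3 of 7, against 7.78% of genes, with a median of 0.74 against 0.06. These were zip-10 at 4.40 ± 0.18 (limma adjusted p = 1.8e-07), cebp-1 at 1.38 ± 0.09 (4.91e-06) and the ZIP-2 target irg-2 at 1.21 ± 0.25 (0.00476). irg-3 was at -0.35 ± 0.15 there (limma adjusted p = 0.094), where irg-1 rose. None of the 7 met both criteria in numr-1/2(RNAi) without cadmium (median 0.19 against -0.02) or with it (-0.35 against -0.02). Without cadmium irg-2 was at -1.64 ± 0.60 there, over 2-fold lower but short of the threshold (limma adjusted p = 0.0600). With cadmium, ints-4(RNAi) was higher for zip-10, by 1.55 ± 0.16 (limma adjusted p = 0.000114), and lower for irg-3, by -1.45 ± 0.12 (2.67e-05). That is 1 of 7 each way, against 4.68% and 5.3% of genes, with a median of 0.00 against 0.10. zip-2 itself, named here outside the rule for named genes, rose by 0.89 ± 0.10 with cadmium in control(RNAi) (limma adjusted p = 0.000298). It was at 0.74 ± 0.09 in ints-4(RNAi) without cadmium (limma adjusted p = 0.000129) and at -0.50 ± 0.10 in numr-1/2(RNAi) with cadmium (0.00406).

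Of 12 genes of the p38 PMK-1 pathway, all tested, only vhp-1, a MAP kinase phosphatase, rose 2-fold with cadmium in control(RNAi), by 1.21 ± 0.14 (limma adjusted p = 0.000309), and in numr-1/2(RNAi), by 1.10 ± 0.12 (4.11e-05). That is 1 of 12 in each, against 4.77% and 7.26% of all genes tested. None met both criteria in the other 5 comparisons. Medians of the list ran from -0.32 for numr-1/2(RNAi) with cadmium to 0.31 for cadmium in control(RNAi), against -0.02 and -0.03 over all genes. Short of 2-fold, nipi-3 and tir-1 rose with cadmium in control(RNAi), by 0.85 ± 0.11 and 0.79 ± 0.17 (limma adjusted p = 0.00064 and 0.00961). In numr-1/2(RNAi) with cadmium nipi-3 was at -0.87 ± 0.11 (limma adjusted p = 0.000427). pmk-1 itself, named here outside the rule for named genes, was at -0.01 ± 0.11 with cadmium in control(RNAi) (limma adjusted p = 0.957) and at -0.19 ± 0.10 in ints-4(RNAi) without cadmium (0.204). The same gene was at -0.41 ± 0.11 in numr-1/2(RNAi) without cadmium (limma adjusted p = 0.0168). Phosphorylation of the kinase was not measured.

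Of 29 other infection response genes, 22 could be tested. Cadmium raised 15 of the 22 at least 2-fold in control(RNAi), 16 under numr-1/2(RNAi) and 9 where ints-4 was silenced. Of all genes tested, 4.77%, 7.26% and 2.57% were higher in the same order. Lower were 1, 1 and 0 of the 22, against 2.71%, 3.92% and 1.22%. The medians were 1.90, 1.71 and 0.91 against -0.03, 0.01 and -0.01 over all genes. C17H12.6 rose by 4.18 ± 0.24 on the log2 scale in control(RNAi) (limma adjusted p = 3.53e-06) and by 5.60 ± 0.14 in numr-1/2(RNAi) (6.6e-10), and C32H11.4 by 3.43 ± 0.17 in ints-4(RNAi) (1.36e-06). ints-4(RNAi) without cadmium raised 11 of 22 and lowered none, against 7.78% of genes higher and 6.72% lower (median 0.98 against 0.06). The C-type lectin gene clec-60 was at 3.24 ± 0.13 there (limma adjusted p = 2.1e-07). numr-1/2(RNAi) without cadmium raised none and lowered 3 of 22, against 5.58% of genes lower, among them clec-60 at -1.21 ± 0.22 (limma adjusted p = 0.00293) and the flavin monooxygenase gene fmo-2 at -1.38 ± 0.28 (0.00428), with a median of -0.08 against -0.02. irg-4 and irg-5 rose at least 2-fold in this comparison, and no tested gene of the list did, against 6.06% of all genes tested. With cadmium, 1 of 22 was higher in numr-1/2(RNAi), F35E12.9 at 1.05 ± 0.19 (limma adjusted p = 0.00275), against 5.73% of genes (median -0.01 against -0.02). In ints-4(RNAi) with cadmium 1 was higher and 2 were lower, against 4.68% and 5.3% of genes (median 0.23 against 0.10). In the deposited means of all 29, 4 were at least 2-fold higher there and 3 lower, against 10.6% and 9.25% of genes. Without cadmium 15 of 29 were higher in ints-4(RNAi), against 12.5%. Of the untested genes, irg-8 was 4.35-fold higher in ints-4(RNAi) without cadmium and irg-7 1.15-fold. With cadmium in control(RNAi) they were at 1.28-fold and 0.656-fold.

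Of 13 genes of the intracellular pathogen response, a defence programme against microsporidia and virus, 12 could be tested. ints-4(RNAi) without cadmium raised 6 of 12 and lowered none, against 7.78% of genes higher, with a median of 1.63 against 0.06 and with F26F2.1 at 7.99 ± 0.34 on the log2 scale (limma adjusted p = 2.41e-07). Cadmium raised 4 of 12 in control(RNAi), against 4.77% of genes, with a median of 0.84 against -0.03 and with eol-1, a homologue of a decapping exonuclease, at 3.28 ± 0.30 (limma adjusted p = 6.69e-05). In numr-1/2(RNAi) it raised 2 of 12, against 7.26% of genes (median 0.82 against 0.01). In ints-4(RNAi) cadmium raised 1 and lowered 2 of 12, against 2.57% and 1.22% of genes (median -0.09 against -0.01). None of the 12 met both in numr-1/2(RNAi) without cadmium (median -0.08 against -0.02) or with it (-0.14 against -0.02). Without cadmium eol-1 was at -1.18 ± 0.42 there, over 2-fold lower but short of the threshold (limma adjusted p = 0.0543), and the deposited means of F26F2.4 and skr-5 were 3.96-fold and 2.68-fold higher, at means under 10 in both groups. With cadmium, 4 of 12 were higher in ints-4(RNAi), against 4.68% of genes (median 0.55 against 0.10).

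Of 11 transcription regulators of the intestine, 4 fell in ints-4(RNAi) without cadmium and none rose, against 6.72% of genes lower, with a median log2 fold change of -0.23 against 0.06 over all genes. The GATA factor genes elt-7 and elt-2 changed by -2.05 ± 0.19 and -1.30 ± 0.11 on the log2 scale (limma adjusted p = 3.53e-05 and 2.15e-05), and the nuclear hormone receptor gene nhr-8 by -1.87 ± 0.13 (4.81e-06). In control(RNAi) cadmium raised pqm-1, a zinc finger factor, by 1.41 ± 0.12 (limma adjusted p = 3.5e-05) and lowered elt-7, at -1.16 ± 0.27 (0.0156), which is 1 of 11 each way against 4.77% of genes higher and 2.71% lower (median 0.15 against -0.03). In numr-1/2(RNAi) cadmium raised pqm-1 by 1.20 ± 0.10 (limma adjusted p = 4.69e-06) and lowered the bZIP gene zip-3, at -1.05 ± 0.10 (8.97e-06), again 1 of 11 each way, against 7.26% and 3.92% (median 0.01 against 0.01). Cadmium in ints-4(RNAi) raised nhr-8 by 1.34 ± 0.14 (limma adjusted p = 0.000153), 1 of 11 against 2.57% of genes (median 0.19 against -0.01). None of the 11 met both in numr-1/2(RNAi) without cadmium (median -0.07 against -0.02) or with it (-0.11 against -0.02), or in ints-4(RNAi) with cadmium (-0.40 against 0.10).

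Marker lists of cell types also moved between the groups, and their summed deposited means are set here across tables that were scaled separately. The summed deposited means of 10 intestine markers ran from 221532 in ints-4(RNAi) to 300875 in control(RNAi), and asp-1, a protease gene, made up 175400 of the latter. The 3 intestine markers that could be split were ges-1, elt-2 and pho-1, of which pho-1 was the most abundant in control(RNAi), at a deposited mean of 5950. Their library sums were 10159 to 11431 in control(RNAi), 7017 to 7428 in numr-1/2(RNAi) and 5010 to 5276 in ints-4(RNAi), with no overlap. Of single genes, 46.4% and 45.1% did not overlap between control(RNAi) and these 2 knockdowns. With cadmium the sums were 7313 to 8441, 6339 to 6436 and 5866 to 6424. In ints-4(RNAi) without cadmium the acid phosphatase gene pho-1 and elt-2 were at -1.99 ± 0.10 and -1.30 ± 0.11 on the log2 scale (limma adjusted p = 8.19e-07 and 2.15e-05). The deposited means of cpr-6 and vha-6 were 0.425-fold and 0.492-fold those of control(RNAi), and that of ifb-2, an intestinal intermediate filament gene, was 1.33-fold. The summed deposited means of 10 gonad and oocyte markers were 45230 in control(RNAi), 106139 with numr-1/2 silenced and 24942 under ints-4(RNAi), and 13336, 50788 and 17065 with cadmium. For 10 epidermis and moulting markers the summed deposited means went from 137837 in control(RNAi) to 81914 with numr-1/2 silenced, where the adult collagen gene col-19 was 5.29-fold higher and the other 9 were lower. For the 4 epidermis and moulting markers that could be split, the library sums were 16236 to 21554 in control(RNAi) and 2748 to 3057 in numr-1/2(RNAi), and 18685 to 21953 and 7797 to 8251 with cadmium. In ints-4(RNAi) they were 21261 to 23566, and 12840 to 15330 with cadmium. Body muscle sums ran from 395629 to 534114 and neuron sums from 14360 to 28937, and no marker of the 5 lists was listed at 0 in any group. The study's methods describe late L4 to young adult worms, and its authors removed genes enriched in stages that the samples might hold. No such filter was applied here. Developmental stage and cell composition cannot be told apart in these sums, and the part of either in the changes of the irg genes was not tested.

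**Figure D4:**
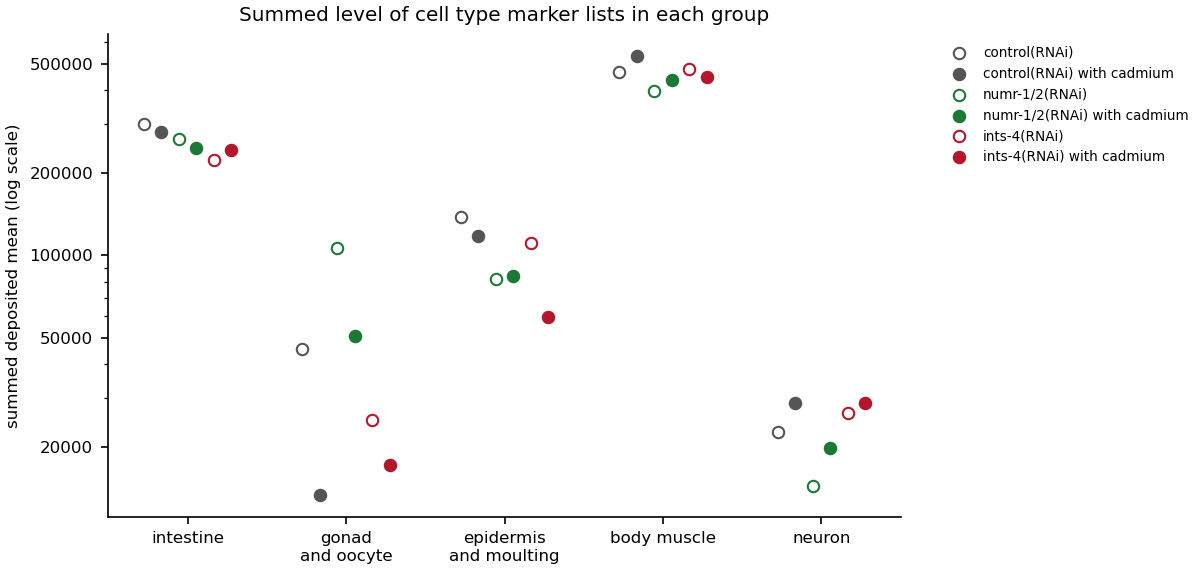
Summed deposited group means of 5 cell type marker lists on a log axis, 1 point for each of the 6 groups, with filled points for cadmium. The gonad and oocyte sum has the widest range, from 13336 in control(RNAi) with cadmium to 106139 in numr-1/2(RNAi). The intestine sum, of which asp-1 makes up the largest part, runs from 221532 to 300875.

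The neighbours of the 4 genes, protein-coding genes within 10 kb, were read next. Around irg-6, 5 of 7 tested neighbours rose at least 2-fold with cadmium in control(RNAi), against 4.77% of all genes. C32H11.4, whose start lies 6295 bases upstream of that of irg-6, went from 110 ± 11.9 to 1496 ± 234 normalised reads (log2 fold change 3.75 ± 0.16, limma adjusted p = 5.34e-07). K08D8.5, whose start lies 2840 bases downstream, went from 585 ± 63.6 to 2758 ± 388 (2.23 ± 0.14, limma adjusted p = 6.35e-06). In ints-4(RNAi) without cadmium 2 of the 7 rose and 2 fell, against 7.78% and 6.72% of genes, and the other 3 did not meet both criteria. K08D8.5 and K08D8.4 rose, by 1.30 ± 0.11 and 2.38 ± 0.20 on the log2 scale (limma adjusted p = 2.22e-05 and 1.8e-05). C32H11.3 and srlf-4 fell, with log2 fold changes of -1.20 ± 0.41 and -1.17 ± 0.20 (limma adjusted p = 0.0489 and 0.00174).

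Around irg-5, 2 of 4 tested neighbours rose 2-fold with cadmium in control(RNAi), against 4.77% of all genes. They were dct-17, by 3.20 ± 0.12 on the log2 scale (limma adjusted p = 2.73e-07), and F35E12.10, by 1.93 ± 0.13 (9.12e-06). None of the 4 met both criteria in numr-1/2(RNAi) without cadmium, in which irg-5 rose by 2.78. In ints-4(RNAi) without cadmium dct-17 rose by 2.03 ± 0.09 (limma adjusted p = 4.42e-07). Beside irg-1, T24A6.7 went from 5.47 ± 0.95 to 199 ± 14.96 normalised reads in ints-4(RNAi) without cadmium (log2 fold change 4.96 ± 0.29, limma adjusted p = 1.76e-06). Around irg-4 none of 6 tested neighbours met both criteria in 6 of the 7 comparisons, and ugt-65 fell in numr-1/2(RNAi) without cadmium, with a log2 fold change of -1.27 ± 0.16 (limma adjusted p = 0.000376). Several of these neighbours are also on the list of other infection response genes.

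**Figure D5:**
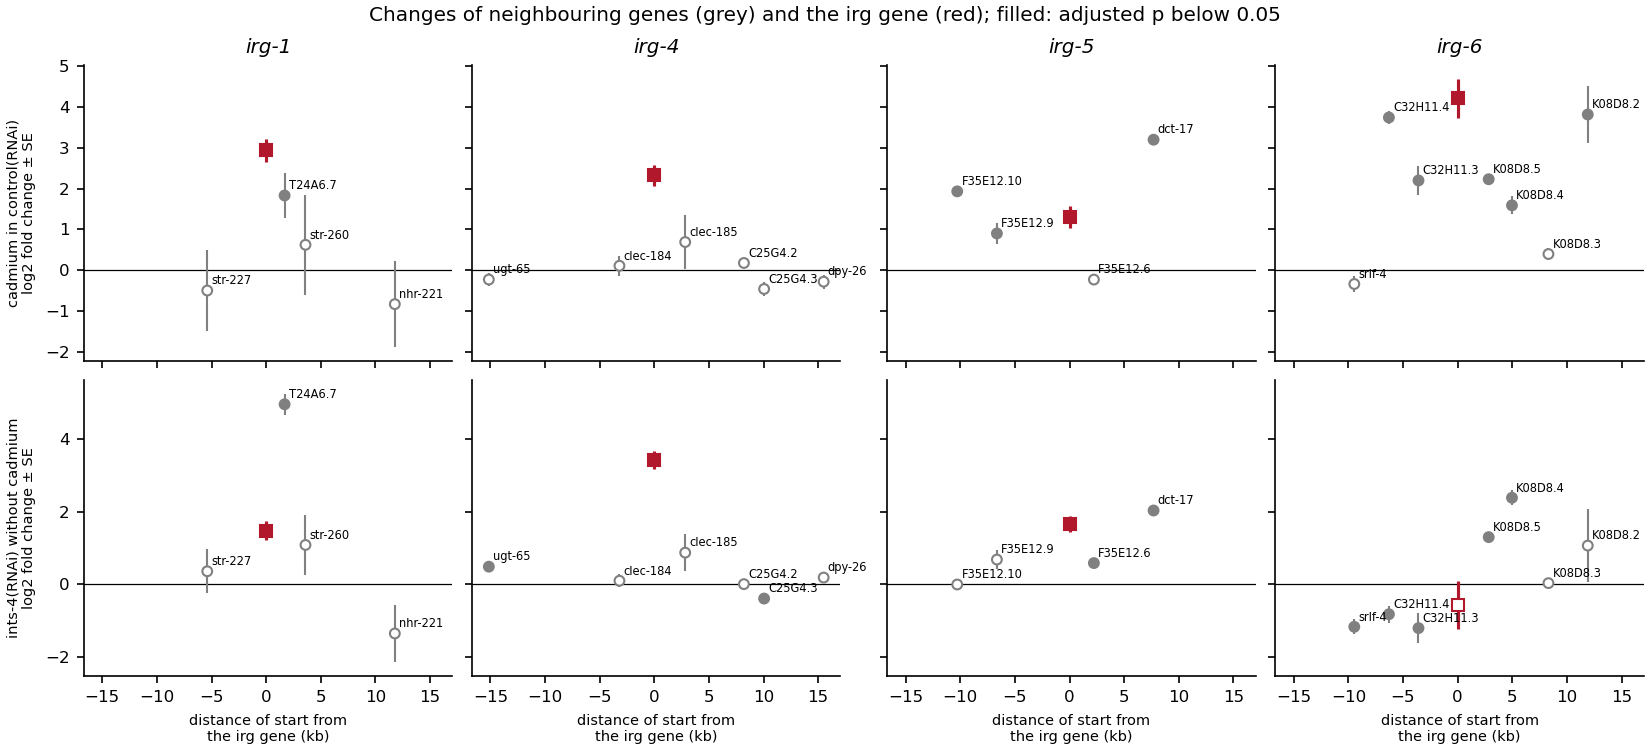
log2 fold change ± SE of tested neighbouring genes (grey circles) and of the irg gene (red square) against the distance of their start sites in kb along the strand of the irg gene, for cadmium in control(RNAi) (top) and ints-4(RNAi) without cadmium (bottom). Filled symbols have an adjusted p below 0.05. Near irg-6, 5 of 7 neighbours rose 2-fold with cadmium, and near irg-4 none of 6 did.

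The genes with the pattern most like each irg gene were read from the deposited means, as the root mean square difference of the log2 changes of the 5 other groups from control(RNAi), among 16978 genes. For irg-1 the nearest were K08D8.12, a protein-coding gene on chromosome IV from 12893466 to 12896332, at 0.29, the pseudogene WBGene00007962 at 0.32, and F55G11.2 at 0.36. For irg-4 they were try-10, a trypsin-like protease gene, at 0.33, Y54G2A.57 at 0.43 and Y39B6A.69 at 0.47. For irg-5 the nearest, cyp-35A1, a cytochrome P450 gene, was at 0.57, with nspa-7 at 0.63 and ZK688.4 at 0.64. For irg-6 they were gba-2, a glucosylceramidase gene, at 0.59, the C-type lectin gene clec-163 at 0.75 and H20E11.2 at 0.85. No irg gene was among the nearest genes of another. Their distances from one another ran from 1.20 for irg-1 and irg-4, the closest pair, to 2.304 for irg-4 and irg-6, the farthest. How these compare with the distances between other genes was not tested. Several of the nearest genes had deposited means under 10 in control(RNAi), where few reads set the pattern.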

How the data were processed

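The members and gene lists were chosen with earlier results of these data known. The submitters' processing notes name HISAT2 2.1.0, HTSeq 0.6.1 and Cufflinks 2.1.1. The genome build was not given in the sources used here. The deposited signal values in the 5 expression tables are normalised group means that the authors made over 3 libraries, scaled within each table. The tables also hold the authors' own fold changes and p-values, which were not used. Fold changes here are ratios of these means without a pseudocount, for the 18479 of 47020 genes above 0 in all 6 groups. Where no table compares 2 groups, log2 changes of the linking tables were added.

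Each value up to 10000 was split into the whole reads of its 3 libraries, since each column has 3 step sizes. The split had a single solution for 100% of values in 5 groups and 99.6% in numr-1/2(RNAi) with cadmium, and gave the same reads in each table for 20198 of 20198 control(RNAi) genes. These reads are derived values. Of the 18479 genes, 823 were left out, for a value above 10000 or a split with several solutions. The other 17656 were scaled by median ratios and tested on log2(reads + 1) with limma 3.58.1 in R 4.3.3, with a trend and Benjamini-Hochberg adjustment over all 17656. This test was chosen after the data were seen. On data simulated for cadmium in control(RNAi), it recovered 37% of genes changed 2-fold and 98% of those changed 4-fold. The simulation gave every gene the same dispersion and changed no gene of very low mean. Its rates may not hold for genes with wider spread or few reads, such as irg-6 without cadmium. Where labels do not tie replicates to separate cultures, p-values measure the spread between these libraries.

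Named genes are the members, the targeted genes and up to 3 genes of each list with the largest fold in a comparison. Also named are neighbours within 10 kb called at 2-fold and the 3 nearest patterns. The neighbours were added after the data were seen. Genes named outside this rule include zip-2, pmk-1, nipi-3, tir-1, irg-7, irg-8 and several cell type markers. A planned group of genes with CUB-like products was not used here, since the tables hold no product names. The splicing tables hold no event of the 4 genes and were not used. Other computations used Python 3.11.15 with NumPy 2.4.6, pandas 2.3.3, numba 0.67.0 and matplotlib 3.10.9. Gene positions are from the WBcel235 annotation.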

Additional observations from a re-analysis of the deposited data

Results flagged for a closer look

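6 differences between cadmium responses passed the limma interaction test at an adjusted p below 0.05. For irg-1 the response in numr-1/2(RNAi) minus that in control(RNAi) was -1.09 on the log2 scale (limma adjusted p = 0.0395, and 0.0821 without library c of control(RNAi) with cadmium), and in ints-4(RNAi) minus control(RNAi) it was -1.75 (0.000723, and 0.00185 without that library). For irg-5 the difference of numr-1/2(RNAi) from control(RNAi) was -0.92 (limma adjusted p = 0.0154, and 0.0267 without the library). irg-4 differed by -1.57 between ints-4(RNAi) and control(RNAi) (limma adjusted p = 0.00138, and 0.000441 without it). Comparing ints-4(RNAi) with the numr-1/2 knockdown, the response of irg-4 differed by -1.43 (limma adjusted p = 0.0017) and that of irg-5 by 0.65 (0.046). In each of these the RNAi with the smaller response had the higher level without cadmium. Among differences that did not pass, irg-6 in ints-4(RNAi) had the lower level and the smaller response, by -1.35 against control(RNAi) and -1.24 against numr-1/2(RNAi). The rest had the higher level with the smaller response. Against control(RNAi) these were irg-5 in ints-4(RNAi) at -0.27, and irg-4 and irg-6 in numr-1/2(RNAi) at -0.14 and -0.11. Between the 2 knockdowns irg-1 was at -0.66. The part of the level without cadmium in any of these differences was not tested.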

How the results depend on the processing

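Of the counts of members at least 2-fold changed, only the 4-fold threshold among the settings tried on the deposited means moved any by over 1.5 times: 1 instead of 3 for cadmium in ints-4(RNAi), for numr-1/2(RNAi) without cadmium and for ints-4(RNAi) without cadmium, 0 instead of 2 for numr-1/2(RNAi) with cadmium and 0 instead of 3 for ints-4(RNAi) with cadmium. Pseudocounts of 1 or 10, other filters, centring, the 1.5-fold threshold and the direct ratio did not. The pseudocounts took the count for numr-1/2(RNAi) without cadmium from 3 to 2, irg-6 dropping out, and the direct ratio took that for numr-1/2(RNAi) with cadmium from 2 to 3. With limma and 1 library left out, the counts were 1 to 2 for numr-1/2(RNAi) without cadmium, 1 to 3 for numr-1/2(RNAi) with cadmium, 2 to 3 for cadmium in ints-4(RNAi), and the same in each fit for the other 4 comparisons. Without library c of control(RNAi) with cadmium, 3 of the 4 responses that differed from control(RNAi) still did. No limma estimate of a member changed sign. No paired analysis was possible because the split libraries carry no replicate number. A test on splicing reads was not run, since no event lies in these genes. At 3 to 33 reads a library, and SEs of 0.56 and 0.65 on the log2 scale, changes of irg-6 between groups without cadmium may be missed. The fold change above which they would be found was not established.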
